A study of Mus musculus with 8 samples.

Results

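The interferon regulatory factor (Irf) genes described here are Irf1, Irf2, Irf3, Irf4, Irf5, Irf7, Irf8 and Irf9. They were read in an ATAC-seq data set of mouse brown adipose tissue (BAT). ATAC-seq maps open chromatin by letting a transposase cut the DNA that nucleosomes leave bare. The measurements were peak summits, the highest point of each peak. A summit was given to an Irf gene when it fell inside that gene or no farther than 50 kb from a transcription start site (TSS) of one of its RefSeq mRNAs, a region called the locus. Of the 32173 summits on the numbered chromosomes, X and Y in the list deposited by the authors, 62 lay in the 8 loci.

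BAT nuclei were taken from 2 WT and 2 Dot1L-BKO mice, and those of each mouse were processed separately. The WT mice were littermates with floxed Dot1l and no Cre. The Dot1L-BKO mice carried Cre under the Ucp1 promoter, so that Dot1l, the histone H3K79 methyltransferase, was lost in Ucp1+ cells while other cells of the tissue kept it. All were 12 weeks old, fed chow and held at 4°C for 4 hr before the tissue was collected. All 4 libraries are named in the list, which gives each summit only 1 score, the −log10 of the q-value from MACS2. A higher score means a more significant enrichment of reads. The list sets WT libraries against Dot1L-BKO libraries in its name, and it is not known here whether the latter were the control in MACS2. If they were, a summit marks more reads in WT than in Dot1L-BKO mice, and a promoter without one may still be open in both. No summit has a value per library. The values below therefore describe 1 list without replicate error, at unknown read depth, and allow no comparison of the genotypes and no test.

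Irf proteins share an N-terminal DNA-binding domain that recognises GAAA repeats, the core of the interferon-stimulated response element (ISRE). Irf3 and Irf7 are switched on by kinases downstream of nucleic acid sensors and drive transcription of type I interferon genes, and Irf5 acts below Toll-like receptors. Irf9 acts at the ISRE, together with Stat2, once interferon has bound its receptor, Irf1 is itself induced by interferon, and Irf2 often opposes it. Irf8 directs the development of macrophages and dendritic cells. Irf4 is best known from lymphocytes, but in BAT it is induced by cold and works with the coactivator PGC-1α, the product of Ppargc1a, to activate Ucp1.

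The promoters whose features the results turn on are printed here from the mouse reference (GRCm38, which is mm10), from 250 bases before the most upstream TSS to the first 30 transcribed bases, 5′ to 3′ in the sense of the gene. Capitals mark matches on either strand to the ISRE (GAAANNGAAA), the ETS-IRF composite element (GGAANNGAAA, called EICE), the interferon-gamma-activated sequence (TTCNNNGAA, called GAS), the GC box (GGGCGG) and the TATA box (TATAAA). Irf4, Irf7 and Irf9 are shown as promoters with a summit and few CpG dinucleotides, Irf1 as one with a summit and many, and Irf8 and Irf2 as promoters without a summit that hold interferon-type matches.
Irf4 promoter, chr13:30748983-30749262, + strand: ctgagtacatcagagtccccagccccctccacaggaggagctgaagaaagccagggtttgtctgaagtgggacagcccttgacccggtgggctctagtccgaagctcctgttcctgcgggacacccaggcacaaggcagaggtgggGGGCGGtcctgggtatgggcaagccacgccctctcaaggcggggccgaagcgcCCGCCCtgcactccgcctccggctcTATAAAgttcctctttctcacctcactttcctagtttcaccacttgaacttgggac
Irf7 promoter, chr7:141266395-141266674, - strand: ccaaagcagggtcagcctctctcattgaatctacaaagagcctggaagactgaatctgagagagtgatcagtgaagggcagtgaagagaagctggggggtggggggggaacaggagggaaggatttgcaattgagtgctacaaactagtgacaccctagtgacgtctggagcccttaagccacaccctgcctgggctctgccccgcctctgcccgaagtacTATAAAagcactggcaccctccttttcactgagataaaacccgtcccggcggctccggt
Irf9 promoter, chr14:55603735-55604014, + strand: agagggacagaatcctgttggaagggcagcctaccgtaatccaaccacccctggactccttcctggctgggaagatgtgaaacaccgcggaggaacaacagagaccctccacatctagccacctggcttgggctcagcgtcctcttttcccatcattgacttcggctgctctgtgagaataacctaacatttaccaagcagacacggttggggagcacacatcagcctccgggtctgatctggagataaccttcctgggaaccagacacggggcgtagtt
Irf1 promoter, chr11:53769764-53770043, + strand: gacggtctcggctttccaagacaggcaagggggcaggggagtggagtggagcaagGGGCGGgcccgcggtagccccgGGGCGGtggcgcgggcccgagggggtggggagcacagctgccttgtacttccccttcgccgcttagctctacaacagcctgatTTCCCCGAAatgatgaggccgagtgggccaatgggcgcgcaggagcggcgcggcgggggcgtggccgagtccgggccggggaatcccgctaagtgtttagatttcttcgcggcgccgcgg
Irf8 promoter, chr8:120736108-120736387, + strand: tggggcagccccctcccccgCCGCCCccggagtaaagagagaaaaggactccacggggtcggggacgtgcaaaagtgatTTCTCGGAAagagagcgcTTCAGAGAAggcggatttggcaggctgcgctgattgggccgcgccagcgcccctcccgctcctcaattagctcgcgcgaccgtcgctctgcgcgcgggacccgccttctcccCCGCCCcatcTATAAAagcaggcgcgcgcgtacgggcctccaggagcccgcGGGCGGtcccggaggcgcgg
Irf2 promoter, chr8:46739495-46739774, + strand: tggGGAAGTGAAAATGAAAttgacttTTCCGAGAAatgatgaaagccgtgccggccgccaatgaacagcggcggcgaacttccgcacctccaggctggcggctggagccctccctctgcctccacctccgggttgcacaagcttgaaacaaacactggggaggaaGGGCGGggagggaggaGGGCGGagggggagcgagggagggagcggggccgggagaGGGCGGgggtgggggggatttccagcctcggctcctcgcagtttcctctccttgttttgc
The windows of 50 bases on each side of the Irf3 promoter summit and of the strongest summit at Irf1 are given on the plus strand, which is the sense strand of both genes.
Irf3 summit, chr7:44997321-44997421, + strand: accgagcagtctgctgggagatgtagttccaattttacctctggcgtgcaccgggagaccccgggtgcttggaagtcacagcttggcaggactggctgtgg
Irf1 summit, chr11:53763899-53763999, + strand: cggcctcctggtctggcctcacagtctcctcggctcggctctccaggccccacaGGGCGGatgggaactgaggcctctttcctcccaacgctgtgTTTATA

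Summits were found at the promoters of Irf4, Irf1, Irf3, Irf7 and Irf9, and not at those of Irf2, Irf5 and Irf8. A promoter summit is one within 1 kb of a TSS of the gene. The share of 5 of 8 (62.5%, 95% Wilson interval 30.6% to 86.3%, counting error only) has an interval that holds the share among all 21000 genes with a curated RefSeq mRNA, where 9485 genes (45.2%) had one. Whether the 5 of 8 differ from that background was not tested, since genes are not replicates. With a score of at least 10 counted, 3 of the 8 remained against 23.5% of all genes. Among the 7 immune-type members, meaning all but Irf4, 4 had a promoter summit.

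Irf4 had a summit 25 bp before its TSS, at chr13:30749208, with a score of 7.53. That position lies inside the TATA box match of its promoter, which spans bases −26 to −21 in the sequence above. Of all genes with a promoter summit, 35.3% had a lower score, and the median over those genes was 10.7 with quartiles of 5.55 and 20.9. Of the other 4 Irf promoters with a summit, 3 scored higher and 1 lower.

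Irf1, Irf7 and Irf9 each had a promoter summit. Irf9, the DNA-binding subunit of the complex that acts at the ISRE, had the highest score of the family at its promoter, 16.7, at 70 bp after the TSS in the 5′ UTR of exon 1 (chr14:55604055). Irf1 had a score of 10.9 at 62 bp after the TSS, also in the 5′ UTR of exon 1 (chr11:53770076). Irf7 had the lowest, 5.55, at 47 bp after the TSS in intron 1 (chr7:141266377). Irf9 and Irf1 were above Irf4 in this order and Irf7 was below it, but the list gives no error by which neighbours could be told apart.

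Irf2 and Irf3, both expressed in many tissues, differed from each other in where their summit stood. The Irf3 summit scored 12.8 and lay 277 bp before its TSS (chr7:44997371). It stood in intron 1 of Bcl2l12, the gene transcribed in the other direction, 208 bp after that gene's TSS, so that it counts for both genes and its nearest TSS is that of Bcl2l12. Irf2 had no summit within 1 kb. Its nearest one scored 12.2 and lay 1288 bp after the TSS in intron 1 (chr8:46741033), just outside the window. A promoter window of 5 kb counts it, and so does adding predicted mRNAs.

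Irf5 and Irf8 had no promoter summit within 1 kb. At Irf8, which has 2 TSSs, the summits stood 1769 bp after the downstream TSS in intron 2 with a score of 3.75, and 12287 bp after it in intron 6 with a score of 2.91. A promoter window of 5 kb counts the first of these. At Irf5 no summit at all lay in the gene or nearest to its TSS. The only one in its locus scored 2.41 and lay 42092 bp upstream, in intron 35 of Kcp. Irf8 and Irf5 thus held the lowest values of the family in the comparison of highest scores per locus.

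**Figure D1:**
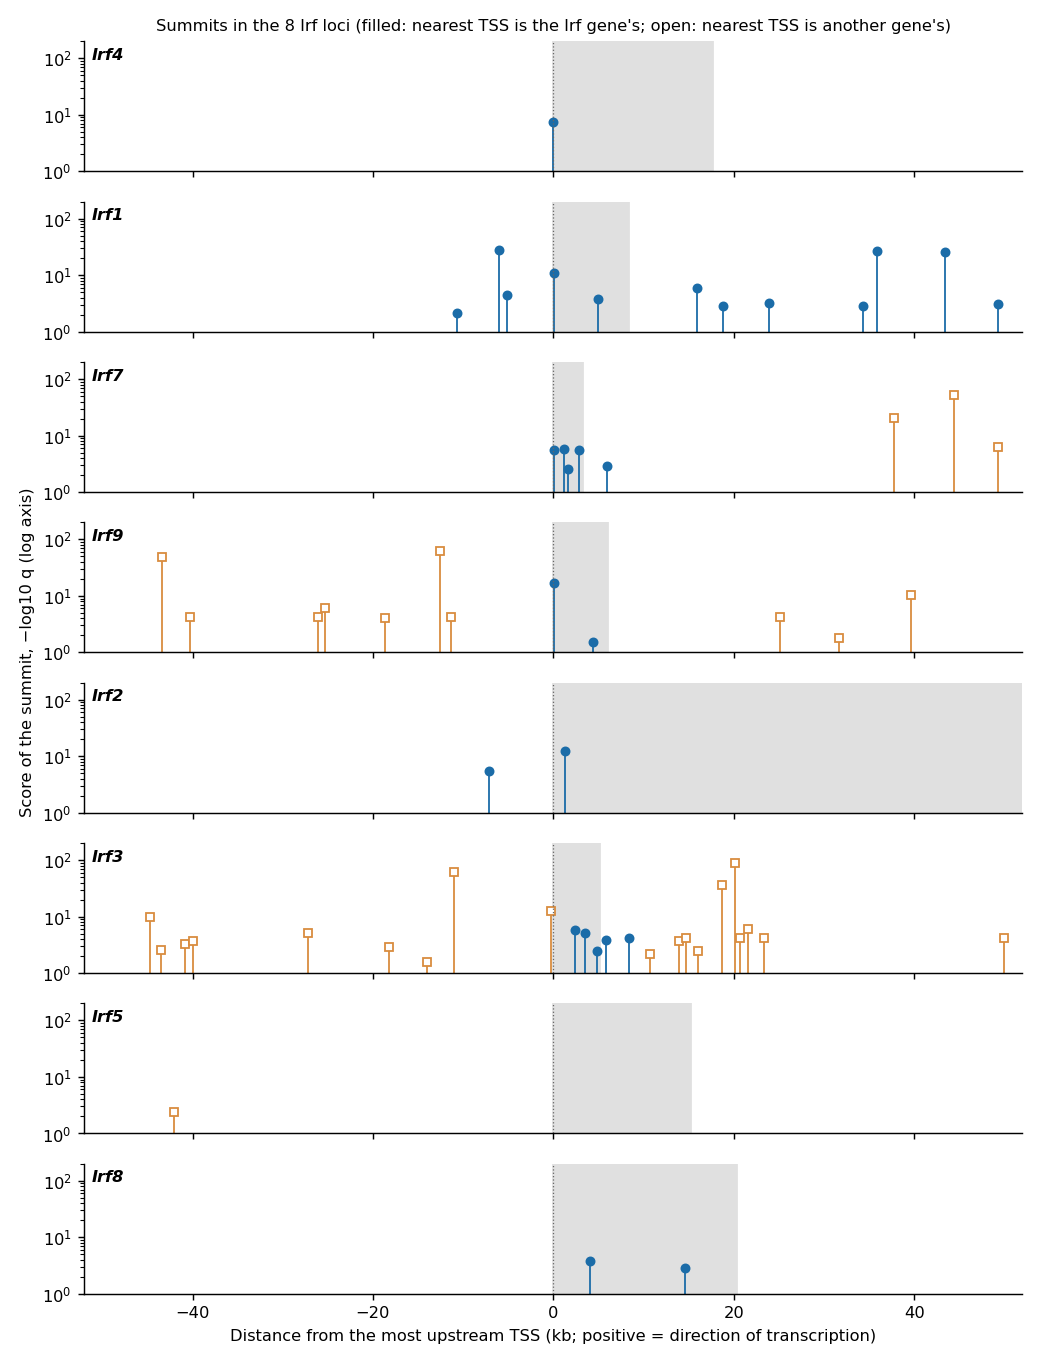
Each panel shows 1 Irf locus, with the distance of each summit from the most upstream TSS in kb on the horizontal axis and its score (−log10 q, log axis) on the vertical axis. Grey marks the gene body, which for Irf2 runs past the right edge, and orange open squares are summits nearest to the TSS of another gene. Irf4 has 1 summit, at its TSS, and Irf1 has 12, all nearest to its own TSS.

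The numbers of summits per locus spread over a wide range, from 1 at Irf4 and Irf5 and 2 at Irf2 and Irf8 to 8 at Irf7, 12 at Irf1 and at Irf9, and 24 at Irf3. All 8 members had a summit in the locus, as did 72.5% of all genes. Over all genes the median was 2 summits with quartiles of 0 and 5, and over the 8 members it was 5. Of all genes, 98.1% had fewer summits than Irf3, whereas 27.5% had fewer than Irf4 and a further 18.4% had the same number. The loci spanned between 100 and 103 kb, except that of the long gene Irf2, at 158 kb.

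**Figure D2:**
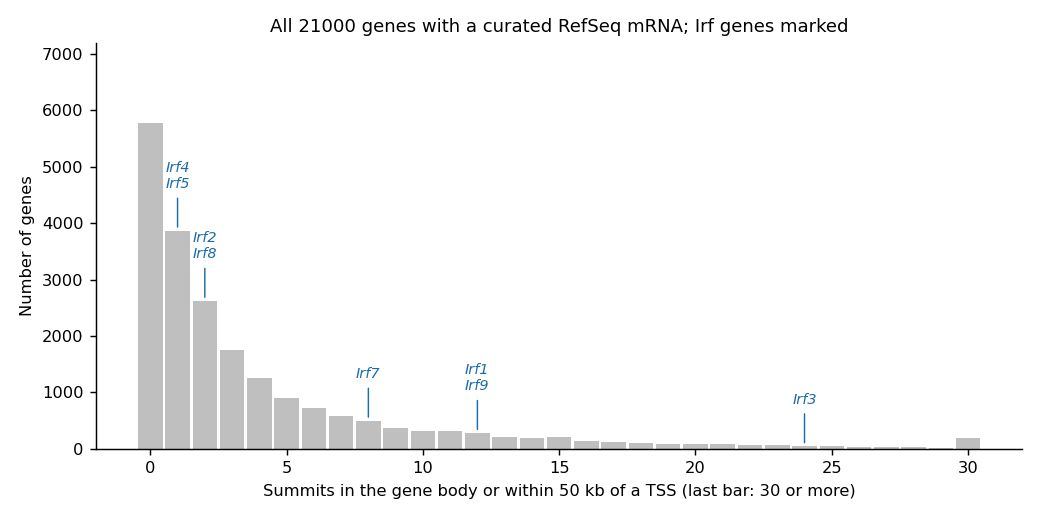
Bars give the number of genes (vertical axis) with each number of summits in the locus (horizontal axis) for all 21000 genes, and blue labels mark where the Irf genes fall. Irf4 and Irf5 stand at 1 summit, Irf2 and Irf8 at 2, Irf7 at 8, Irf1 and Irf9 at 12 and Irf3 at 24.

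Much of this spread went with neighbouring genes. Of the 62 summits, 29 were nearest to the TSS of the Irf gene itself and 33 to that of another gene. The Irf9 locus holds TSSs of 10 other genes and the Irf3 locus of 5, and at these loci only 2 and 5 summits were nearest to the Irf gene. The Irf2, Irf4 and Irf8 loci hold none. Over all genes, the 5791 with no other TSS in the locus had a median of 1 summit, and the 2938 with 5 or more had a median of 8.

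The strongest summits in the crowded loci belonged to the neighbours. At Irf3 the top scores were 90.5 at 170 bp before the TSS of Rras, a small GTPase gene, 60.5 at 236 bp before that of Prmt1, an arginine methyltransferase gene, and 36.7 at 95 bp before that of Scaf1. At Irf9 they were 61.5 between Rnf31 and Psme2, within 1 kb of both, and 48.2 in intron 1 of Dcaf11, followed by the 16.7 of Irf9 itself. Rnf31 encodes a ubiquitin ligase, and Psme1 and Psme2 encode the interferon-inducible subunits of the proteasome activator PA28. Psme1 had summits of 4.16 and 6.02 within 1 kb of its TSS. Other neighbours with a summit within 1 kb were Tm9sf1 (10.4), Emc9 (4.02) and Ipo4 (1.83). At Irf7 the top 2 scores, 52.6 and 20.2, lay 6123 bp after the TSS of Rassf7 and 125 bp before that of Phrf1.

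Irf1 was the exception among the loci with many summits, because all 12 were nearest to its own TSS and its locus holds the TSS of only 1 other gene, the cytokine gene Il5. Irf1 encodes an activator of interferon-stimulated genes. Its highest scores were not at the promoter but between genes: 27.7 at 6065 bp before the upstream TSS, and 26.9 and 26.1 at 35468 and 42991 bp after the downstream one of its 2 TSSs. These 3 exceeded the promoter score of 10.9, while the other 8 summits ran from 2.15 to 5.87. They were also the highest scores nearest to the TSS of any Irf gene. The summit 6065 bp upstream, whose bases are printed above, had a GC box within 50 bp.

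Of the 62 summits, 14 lay in the body of the Irf gene, 9 of them in introns, 3 in UTRs and 2 in coding exons. Their median score was 5.31, against 5.0 for all summits and 4.16 for the 62. The highest were the 16.7 of Irf9, the 12.2 of Irf2 and the 10.9 of Irf1 described above, each close to a TSS, and both summits of Irf8 were also in its body. Irf7 had 4 within a gene of about 3 kb, with scores of 5.55 in intron 1, 5.87 in intron 3, 2.53 in exon 5 and 5.55 in intron 7. Irf3 had 3, with 5.87 in exon 3, 5.07 in intron 6 and 2.44 in the 3′ UTR. Irf9 had 1.54 in intron 7 besides its promoter summit, and Irf1 had 3.75 in intron 7. Irf4 and Irf5 had none in the body. The remaining summits fell in other genes (27) or between genes (21).

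The promoter summit of Irf4 stood alone within the 50 kb window, but 3 further summits nearest to the Irf4 TSS lay 53339 to 65249 bp after it, and a window of 100 kb held 6 summits. The summit next to that at the promoter was 53364 bp away, and 86.3% of the summits in the list had a closer neighbour, with a median distance of 3190 bp. A locus with a single summit that lies at the promoter was seen for 1664 genes, or 7.92% of all genes, and among the 8 members for Irf4 only. By highest score in the locus Irf4 ranked 6 of 8, and by number of summits it shared the lowest place with Irf5. By highest score nearest to its own TSS it ranked 4, after Irf1 (27.7), Irf9 (16.7) and Irf2 (12.2). This order leaves out the Irf3 promoter summit, whose score of 12.8 is above that of Irf4 but whose nearest TSS is that of Bcl2l12.

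Its partner and target in thermogenesis stood in far richer loci. Ppargc1a had 15 summits, all nearest to its own TSS and 11 in the gene body, in a locus of 149.7 kb without another TSS, as at Irf4. Its promoter summit scored 20.8 at 51 bp before the TSS, and a summit in its gene body 8121 bp after the TSS scored 27.4. Ucp1, the uncoupling protein gene of brown adipocytes, had 12 summits, 11 of them nearest to its own TSS, and its promoter summit of 33.7 lay 26 bp before the TSS. Per 100 kb of locus Irf4 had 1.00 summits and Ucp1 had 12.0, against a median of 1.66 over all genes, with the window of 50 kb.

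**Figure D3:**
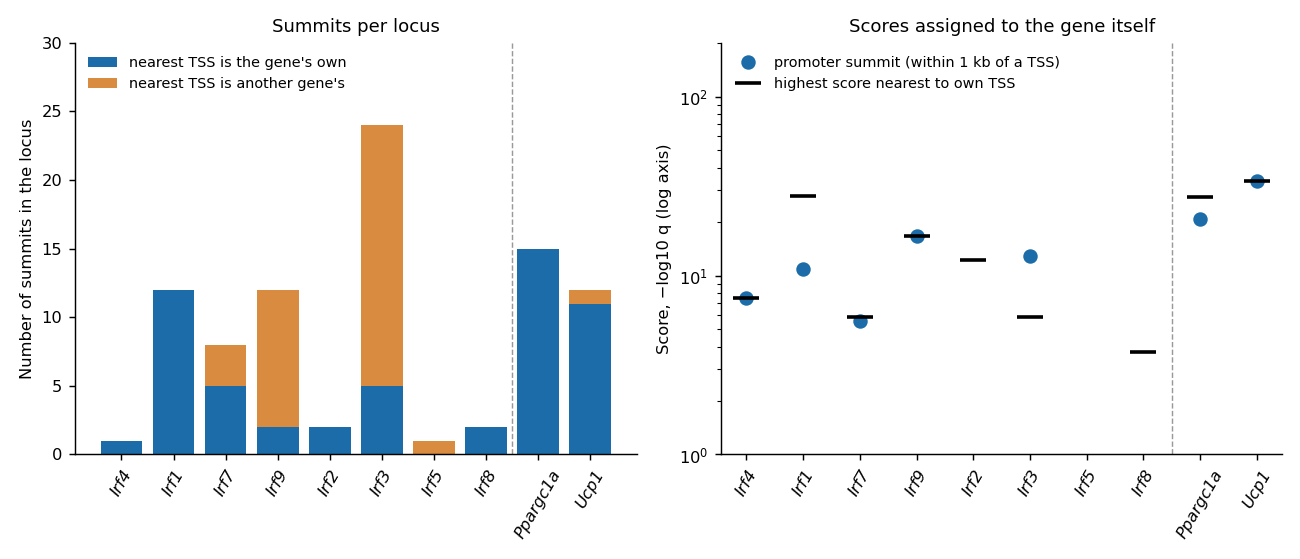
Left, number of summits per locus for each gene, with those nearest to the gene's own TSS in blue and those nearest to another gene's in orange. Right, score (−log10 q, log axis) of the promoter summit (circles) and the highest score nearest to the gene's own TSS (bars). Irf4 has 1 summit with a score of 7.53, below the promoter scores of Ppargc1a (20.8) and Ucp1 (33.7) shown right of the dashed line.

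Irf promoters with a summit were found among both CpG-poor and CpG-rich promoters. Promoters rich in CpG dinucleotides are open in most tissues, and in these data the share of genes with a promoter summit was 6.19%, 18.6%, 52.5%, 72.3% and 76.2% in 5 groups of equal size from the lowest to the highest ratio of observed over expected CpG, computed from 250 bases before to 50 bases after the TSS. Irf7, Irf9 and Irf4 had ratios of 0.310, 0.392 and 0.398, in group 2, and each had a promoter summit. Irf5 and Irf8 had ratios of 0.889 and 1.03, in group 5, and had none. Irf1 (0.912) and Irf3 (0.712) had many CpG and a summit, and Irf2 (0.673) was in group 3 without one. Taken over 1 kb of sequence instead, an alternative chosen after seeing the data, Irf4, Irf7 and Irf9 were again in group 2, where 17.4% of genes had a promoter summit, and Irf5 and Irf8 were in group 4, where 72.5% had one. With a promoter window of 5 kb Irf8 and Irf2 also had a summit, and Irf5 did not. These are 8 genes and the pattern was not tested.

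**Figure D4:**
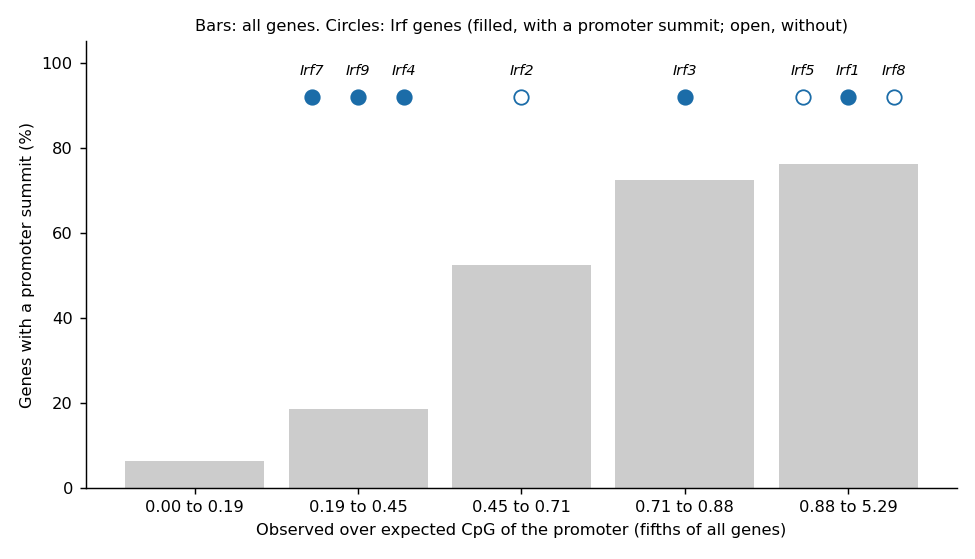
Bars give the percentage of genes with a promoter summit (vertical axis) in 5 groups of promoter CpG ratio (horizontal axis), for all genes. Circles at the top place the 8 Irf genes in their groups, their height having no meaning, and are filled where the gene had a promoter summit. Irf7, Irf9 and Irf4 are filled in a group where 18.6% of genes had one, and Irf5 and Irf8 are open in a group where 76.2% had one.

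The element that Irf proteins bind was absent from the windows around the summits. Within 100 bp of the 62 summits there was no match to the ISRE or to the EICE, which were found at 1.35% and 1.2% of all summits, so that few would be met in 62 windows at those shares. GAS matches lay at 3 of the 62 (4.84%, against 4.10% of all summits), 1 of them at the Irf9 promoter summit. TATA box matches lay at 5 (8.06%, against 3.29%) and GC boxes at 12 (19.4%, against 20.6%). For the other patterns counted, the shares were 50% against 44.3% for NF-kB (GGGNNNNNCC), 16.1% against 14.8% for the core of the cAMP response element (TGACG), 4.84% against 6.40% for AP-1 (TGANTCA), 6.45% against 9.57% for ETS (CCGGAA) and 25.8% against 29.1% for C/EBP. A match is only a run of letters, and its absence here says nothing about binding.

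In the promoters themselves, interferon-type matches stood at 3 genes, Irf1 with a promoter summit and Irf2 and Irf8 without one. The ISRE was found only in the Irf2 promoter, at bases −241 to −232, overlapping an EICE at −247 to −238, and such matches were in 3.59% and 2.77% of all promoters of 300 bases. GAS matches were in Irf2 (−224 to −216), Irf8 (−171 to −163 and −153 to −145) and Irf1 (−90 to −82), against 7.88% of all promoters. TATA boxes were in Irf4, Irf7 and Irf8, against 13.0% of all promoters, and GC boxes in 6 of the 8, not in Irf7 and Irf9, against 47.9%. The Irf9 promoter printed above held none of the 5 marked elements.

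The pathway around the Irf genes was read in the same way, from lists chosen with earlier results of these data known. Of 16 genes for interferon receptors and Janus kinase signalling, 14 (87.5%, interval 64.0% to 96.5%) had a promoter summit against 45.2% of all genes. The 16 include inhibitors of the pathway, and the contrast was not tested. The highest scores were 84.1 at Stat3, 52.8 at Ifngr1 and 29.3 at Stat2, and the genes without one were Ifnlr1, the receptor chain for lambda interferons, and Ptpn6, a phosphatase of blood cells. Of 20 sensors and kinases upstream of Irf3, Irf5 and Irf7, 11 (55.0%, interval 34.2% to 74.2%) had one, near the 45.2% of all genes. Their highest scores were 37.6 at Ticam1, the adaptor of Tlr3, 23.1 at Mavs, the mitochondrial adaptor of the RNA sensors, and 23.1 at Irak4, a kinase below Toll-like receptors. The sensors Ddx58, Ifih1, Cgas, Tlr3, Tlr7 and Tlr9 had none, nor had Tmem173 (Sting), Irak1 and Ikbke, whereas the sensors Dhx58 (10.4), Zbp1 (2.15) and Tlr4 (1.83) had one.

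Of 36 interferon-stimulated genes, 34 had a curated mRNA (not Mx1 and Mx2) and 17 of these (50%, interval 34.1% to 65.9%) had a promoter summit, near the 45.2% of all genes. The antigen presentation genes Tap1 and Psmb9, which share a promoter region, led with 30.1 each, followed by B2m with 14.5. The 17 without a promoter summit were Isg15, Ifit1, Ifit2, Ifit3, Oas1a, Oas2, Oas3, Oasl2, Ifi44, Ifitm3, Xaf1, Nmi, Parp14, Cxcl10, Ciita, Gbp3 and Cd274. Of 13 partners and coregulators of Irf factors, 8 (61.5%) had one, with an interval of 35.5% to 82.3% that holds the 45.2% of all genes. They were led by Irf2bp2 with 51.0, Irf2bpl with 23.1 and Ppargc1a with 20.8. The 5 without one were Spib, Batf, Batf3, Ikzf1 and Crebbp. Of the other partners known from blood cells, Prdm1 (5.87), Spi1 (3.32) and Bcl6 (2.15) had one.

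Markers of cell types were read beside these results. All 12 adipocyte genes on the list had a promoter summit, with scores of 6.02 to 61.5. They comprise genes typical of brown adipocytes (Ucp1, Cidea, Ppargc1a, Prdm16, Ebf2, Dio2, Elovl3 and Cox8b) and genes shared with white adipocytes (Pparg, Adipoq, Plin1 and Fabp4), and the highest scores were 61.5 at Cidea, 35.0 at Fabp4 and 33.7 at Ucp1. Of 12 macrophage and other leukocyte markers 2 had one, Spi1 with 3.32 and Cd68 with 2.15, and those without included Ptprc, Adgre1, Csf1r, Itgam, Cd14, Fcgr1, Lyz2, Cd79a and Cd3e. Of 4 endothelial markers 1 had a promoter summit (Cdh5, 2.59, not Pecam1, Kdr and Tek), and of 3 progenitor markers 1 (Pdgfra, 4.16, not Dpp4 and Dlk1). Nuclei of all cells in the tissue entered the libraries, so that fewer cells of a type and less signal per cell cannot be told apart. If the Dot1L-BKO libraries were the control in MACS2, a marker without a summit shows only that no excess of reads in WT mice was called there. The part of the cell mixture in the lack of summits at the Irf5 and Irf8 promoters was not tested.

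**Figure D5:**
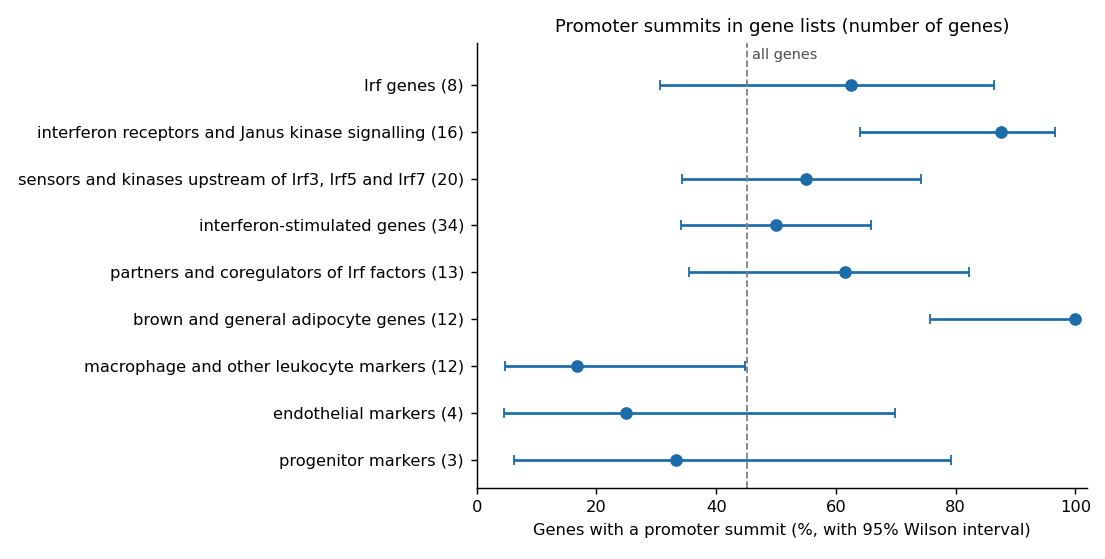
Points give the percentage of genes in each list with a promoter summit (horizontal axis) and bars the 95% Wilson interval, which covers counting error only. The dashed line is the 45.2% of all genes. The adipocyte genes stand at 100% and the leukocyte markers at 16.7%, with the Irf genes at 62.5% between them.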

How the data were processed

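ATAC-seq libraries were made with a Nextera kit from nuclei of BAT, 1 library for each of 2 WT and 2 Dot1L-BKO mice. The authors trimmed reads with cutadapt 1.2.1 (per the labels), aligned them to mm10 (BWA-backtrack, Partek Flow) and ran MACS2 2.1.1 in its ATAC mode, keeping peaks at a q-value of 0.05 or less and a fold enrichment of 2 or more. Their deposited list names the 4 libraries and holds 1 position and 1 −log10 q-value per peak. How reads were shifted and how duplicate and mitochondrial reads were treated is not given in the sources used here. The study describes joining the peaks of single samples into 1 union set, but whether these summits stem from that set is not stated. Depth per library is unknown. Only summits on the numbered chromosomes, X and Y were used. Their scores ran from 1.31 to 13426, with 2606 distinct values, so that many summits tie. The RNA-seq part of the study, 2 libraries a genotype, was not used.

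Summits were placed on curated RefSeq mRNAs of GRCm38 (21000 genes). Distances are to the nearest TSS of the gene, positive in the direction of transcription. Motifs were searched on both strands within 100 bp of summits and from 250 bases before to 50 bases after the most upstream TSS. The genes named were the 8 members, the summits within 1 kb of their TSSs and the 3 highest scores in each locus, neighbours with a summit within 1 kb, Ppargc1a and Ucp1, and from each list the 3 highest promoter scores and the genes without a promoter summit. A few list members were named besides (Dhx58, Zbp1, Tlr4, Prdm1, Spi1, Bcl6 and the remaining adipocyte genes), chosen after their values were seen. Members and lists were chosen with earlier results of these data known. Placement and motif search were tested on simulated data. Results were recomputed with a score minimum of 5 or 10, with summits closer than 500 bp merged, and with other promoter windows, locus windows (10 and 100 kb), transcripts and assignments of summits. The scripts ran under Python 3.11.15 with pandas 2.3.3 and numpy 2.4.6, and figures were drawn with matplotlib 3.10.9.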

Additional observations from a re-analysis of the deposited data

How the results depend on the processing

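The list gives no depth, no error and no value per library, so that how far any value here would vary between mice is unknown. No paired analysis was possible because the deposited list holds no value per library, a lack which also kept single replicates from being left out. With a score of at least 10, 3 members had a promoter summit (Irf1, Irf3 and Irf9) and Irf4 had no summit left. The number of summits in the 8 loci fell from 62 to 28 where scores under 5 were dropped and to 15 where those under 10 were dropped, was 22 with a locus window of 10 kb and 117 with 100 kb, and was 29 when only summits nearest to the TSS of the Irf gene were counted. The rank of Irf4 by highest score moved from 6 to 5 with 10 kb, to 8 with 100 kb and to 4 with its own summits only. Its rank by number of summits moved from 7 to 6 with the minimum of 5 and with the 100 kb window. The other alternatives to these results moved them by no more than 1.5 times. With predicted mRNAs added 6 members had a promoter summit (Irf2 gained), and with a promoter window of 5 kb 7 had one (Irf2 and Irf8 gained). The share of all genes at these settings is not given here, so these counts cannot be set against the 45.2% at 1 kb. For single loci, the number of summits moved by more than 1.5 times in 27 recomputed values and by no more than that in 29. Promoter scores were the same in 32 and rose from 5.55 to 5.87 at Irf7 with the promoter window of 5 kb. With 1 kb of sequence, 3 of the 8 promoters (Irf2, Irf5 and Irf8) moved by 1 CpG group.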

Other observations

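Farther from Irf4, between 50 and 100 kb from its TSS, 5 summits were found. Downstream of the gene, at 53339, 60236 and 65249 bp after the TSS, the scores were 4.04, 7.05 and 9.21, and Irf4 had the nearest TSS of an mRNA in each case. Upstream, 2 summits were nearest to Dusp22, with 9.78 at 237 bp and 8.12 at 5387 bp after the TSS of that gene.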
